A study of Mus musculus with 13 samples.

Results

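Homeostatic microglia carry a set of surface and secreted products that set them apart from other macrophages. The 7 genes examined here are Tmem119, Fcrls, Siglech, Selplg, Olfml3, Sparc and Golm1, listed by name, with earlier results of these data known, out of 17280 genes common to all plates and to the authors' filtered table. All 7 were found in every plate and all passed the filter on low counts in every comparison. Their levels were followed in single microglia from the hypothalamus of C57BL/6J males given control chow or high-fat diet (HFD, 60% fat) for 1 day, 3 days, 1 week, 4 weeks, 9 weeks or 16 weeks. The mice were wild type, and no age is given in the labels of the plates. Many wells carry a number of weeks in their names (9, 14 or 24), whose meaning is not stated. The labels call every plate brain microglia with 3 days of HFD, and the diet length of each well is that of the deposited table of wells. The hypothalamus is named in the study's description of its single-cell data of 3 days, so the region of the other lengths is assumed to be the same.

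Tmem119 encodes a transmembrane protein widely used to tell microglia from other myeloid cells. Fcrls is an Fc receptor-like molecule, Siglech a sialic acid-binding lectin that signals through DAP12, and Selplg the P-selectin ligand PSGL-1. Olfml3 and Sparc encode secreted proteins, an olfactomedin-like glycoprotein and a matricellular glycoprotein, and Golm1 encodes a membrane protein of the Golgi. Several of them are known to depend on TGF-β signalling in microglia and to fall when microglia become activated in disease.

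Single CD45lo CD11b+ cells were sorted into wells of 13 plates and sequenced by CEL-Seq2, which counts the 3′ end of each transcript once by its molecular identifier (UMI), so that levels of different genes can be compared without a correction for gene length. Of 2496 wells, 1617 held at least 1500 transcripts and were used as cells. They comprised 722 control cells, 161 cells of 1 day, 121 of 3 days, 172 of 1 week, 128 of 4 weeks, 82 of 9 weeks and 231 of 16 weeks. The 1-week group joins wells labelled 1 week and 7 days. Cells were summed by replicate identifier, diet length and plate, which gave 68 sums of 7 to 76 cells and 22768 to 219146 transcripts from 45 replicates. It is not stated whether each identifier is 1 mouse, some cover several plates, and p-values therefore measure the spread between these sums. Levels are given in CPM, the transcripts of a gene scaled to a common total of transcripts per sum.

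The cells carried the markers of microglia. Cx3cr1 and Csf1r were each detected in 99.8% of cells and P2ry12 in 99.1%, and the transcription factor Sall1 was detected in 72.2%. Measured markers of other cell types were scarce: 63 cells (3.90%) held at least 3 UMIs of any list of border-associated macrophage, monocyte, neutrophil, lymphocyte, astrocyte, oligodendrocyte, neuron or endothelial markers. Their share ran from 0.621% of the cells of 1 day to 8.59% of those of 4 weeks, against 2.63% of control cells. Several lists were measured only in part. They held 1 of 6 neutrophil, 3 of 7 lymphocyte and 3 of 5 endothelial markers, and 4 of 6 astrocyte and 5 of 7 monocyte markers. Cells of these types may therefore have been missed. Cells with at least 5 UMIs of MHC class II transcripts numbered 41 and were most frequent at 3 days (9.92%), 1 week (8.72%) and 4 weeks (6.25%), against 0.554% of control cells. Of these 41 cells 33 were on plates 4 and 5, which held only 7 of the 722 control cells, so these shares cannot be told apart from a difference between plates.

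The reads had been mapped to GRCm38, the build of the GENCODE M21 annotation used for positions. Tmem119 (chr5:113793729-113800516) and Selplg (chr5:113818536-113832644) are neighbours on the minus strand, 18019 bases apart, with no other protein-coding gene between them. Fcrls (chr3:87250758-87263738) and Olfml3 (chr3:103722222-103738001) lie on the same chromosome but 16458483 bases apart. Siglech (chr7:55768178-55778925) lies on the plus strand, and Sparc (chr11:55394500-55423183) and Golm1 (chr13:59634626-59675811) on the minus strand. Golm1 is the only member that overlaps another annotated gene, Naa35 on the opposite strand. The strand setting of the counting is not given in the sources used here, so reads of Golm1 and Naa35 may not have been kept apart.

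RefSeq promoters (GRCm38.p6, 250 bases before to 50 after the start) were matched for 5 members, Fcrls, Siglech, Olfml3, Sparc and Golm1. The letters GAGGAA, the core of sites of the myeloid factor PU.1, were searched on both strands and occurred in the promoters of Fcrls and Siglech and in 28.3% of all 32851 promoters. These promoters are shown because these 2 members had the largest differences from control among the 7 at 1 day, in opposite directions. Capitals mark the match, which begins 144 bases before the start on the gene's own strand in Fcrls. In Siglech it is on the opposite strand, as TTCCTC, begins 4 bases before the start and runs across it. Neither sequence is given as a bound site. The TATA box letters TATAAA occurred in the promoters of Fcrls and Golm1 (13.6% of all promoters) and CAGACA, a SMAD-type element, in those of Fcrls, Siglech and Sparc (21% of all promoters).
Fcrls, chr3:87263475-87263774, minus strand: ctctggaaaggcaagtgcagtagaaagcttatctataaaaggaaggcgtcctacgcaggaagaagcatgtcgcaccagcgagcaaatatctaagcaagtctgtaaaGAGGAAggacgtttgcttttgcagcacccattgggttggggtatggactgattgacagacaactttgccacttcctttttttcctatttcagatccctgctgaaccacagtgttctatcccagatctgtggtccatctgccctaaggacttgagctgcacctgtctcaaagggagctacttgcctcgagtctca
Siglech, chr7:55767934-55768233, plus strand: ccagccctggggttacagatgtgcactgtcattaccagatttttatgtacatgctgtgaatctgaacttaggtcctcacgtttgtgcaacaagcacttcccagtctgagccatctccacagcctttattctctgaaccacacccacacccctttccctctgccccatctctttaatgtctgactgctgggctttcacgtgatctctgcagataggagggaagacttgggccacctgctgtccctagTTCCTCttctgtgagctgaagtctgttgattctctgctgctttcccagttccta

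In control cells the 7 members were abundant and stood in a stable order. Sparc was highest at 5245 ± 642 CPM (SD, n = 28 sums) and the 10th most abundant of all genes. Selplg followed at 3686 ± 578, Siglech at 2675 ± 541, Tmem119 at 2054 ± 324 and Olfml3 at 1994 ± 334. Fcrls was lower at 1082 ± 209 and Golm1 lowest at 657 ± 146, the 140th gene. Sparc was above Selplg, Olfml3 above Fcrls and Fcrls above Golm1 in 28 of 28 control sums. Selplg was above Siglech and Siglech above Tmem119 in 27 of 28. Tmem119 was above Olfml3 in 17 of 28, so these 2 neighbours did not differ beyond their spread.

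Control levels varied between plates, which is why each diet length was compared within plates. The highest of 12 plate means exceeded the lowest 1.27-fold for Sparc, 1.47-fold for Olfml3, 1.54-fold for Fcrls, 1.59-fold for Tmem119, 1.71-fold for Selplg and 1.86-fold for both Siglech and Golm1. Within plates, control sums of Selplg were the least variable (SD of 0.16 on the log2 scale, from 6 plates with more than 1 control sum), and those of Golm1 (0.31) and Fcrls (0.30) the most variable. Sparc is also made by endothelial cells and astrocytes. Their measured markers (3 of 5 and 4 of 6 listed) summed to medians of 43.9 and 4.67 CPM in control sums. Together the 7 genes made up a median of 1.71% of all transcripts of a control sum.

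**Figure D1:**
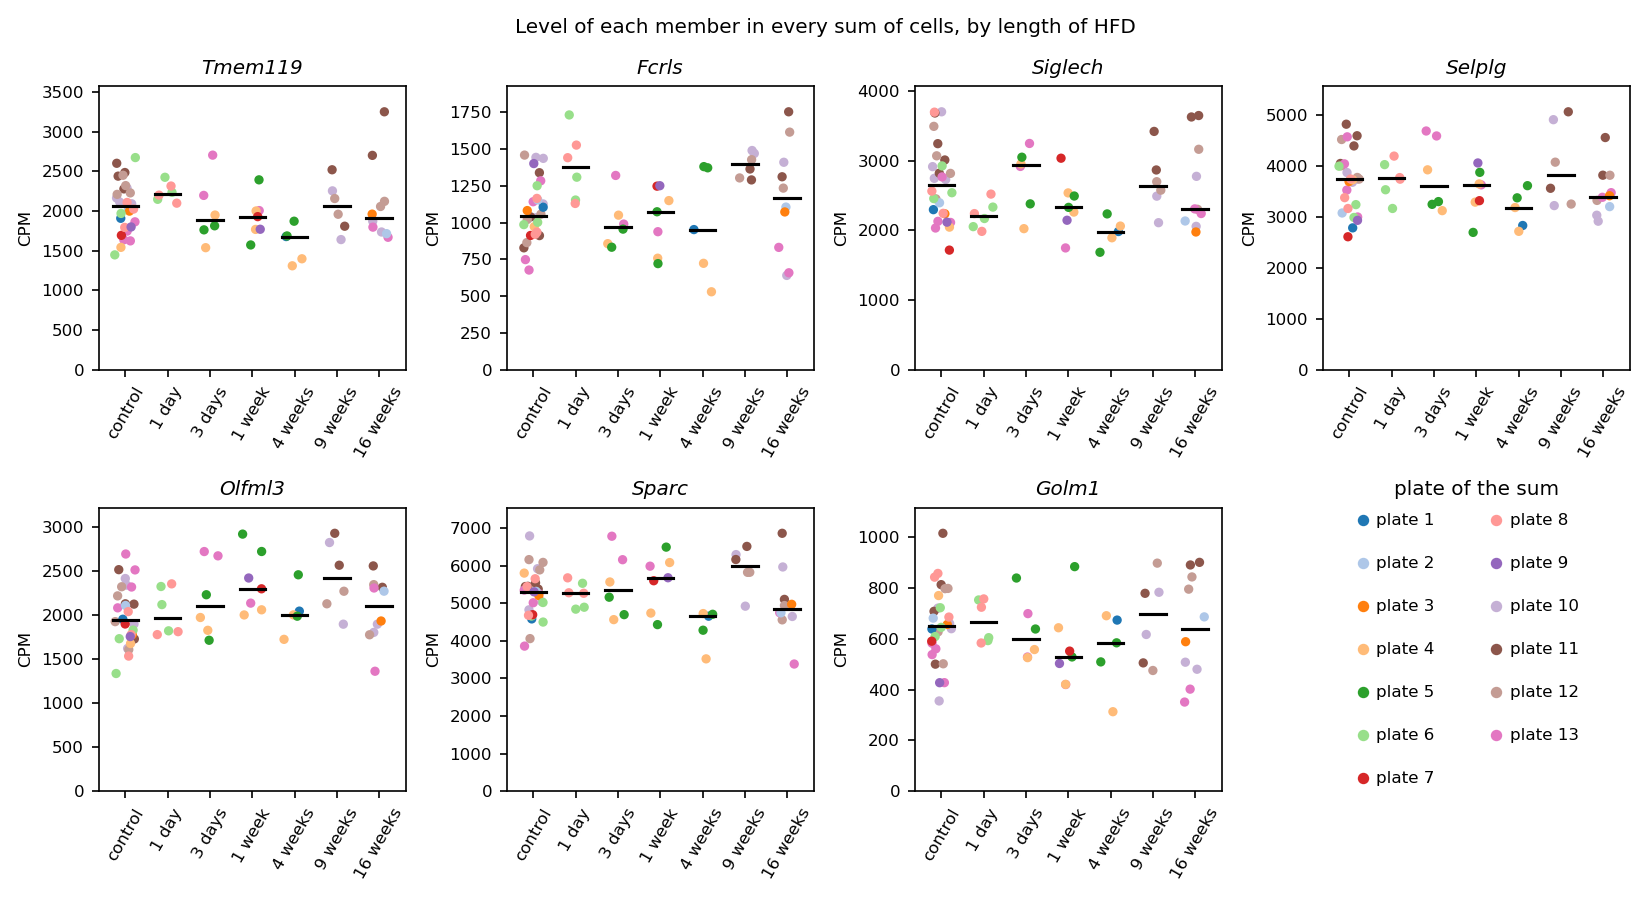
CPM (y axes, linear from 0) of each member in each of the 68 sums of cells, by length of HFD (x axes). Points are sums, coloured by plate, and bars are medians. For every member, points of the diet groups lie largely within the range of the 28 control sums, for example 1447 to 2673 for Tmem119 in control.

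Shallow wells held transcripts of the members too. In 336 wells with fewer than 200 transcripts, Tmem119 made up 1323, Selplg 3654 and Sparc 3937 CPM, and Tmem119 was detected in 11.3% of these wells, against 96.7% of cells. The members' shares of transcripts in these wells were thus of the order of those in cells.

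The first question was whether HFD of any length changed the level of the members. None of the 7 passed an adjusted p of 0.05 (edgeR quasi-likelihood test, Benjamini-Hochberg over all genes tested) at any of the 6 lengths. The same held in the trend over the order of the lengths and in the test for any difference between lengths. The share of all genes that passed was 0% at 1 day, 3 days, 4 weeks and 16 weeks, 0.28% at 1 week (Gm42418, H2-Aa and H2-Ab1, higher) and 0.0948% at 9 weeks (Jun, lower). Counts at an unadjusted p under 0.05 are therefore given as a description beside the share of all genes at that level.

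At 1 day, Fcrls, Olfml3 and Siglech stood apart from the other members, and not in the same direction. With 6 control and 6 HFD sums on plates 6 and 8, 3 of 7 members had an unadjusted p under 0.05, against 5.65% of all 1116 genes, and 0 of 7 passed the adjusted threshold. Fcrls was 920, 935, 986, 1002, 1164 and 1250 CPM in the control sums. It was 1130, 1153, 1308, 1441, 1526 and 1731 CPM in the sums of 1 day HFD. The groups overlapped in that 2 control sums lay above the 2 lowest HFD sums. The log2 difference of Fcrls was 0.39 (SE 0.13, 95% interval 0.14 to 0.64, adjusted p = 0.611), or 1.31-fold.

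Siglech differed the other way at 1 day. Its control sums were at 2243, 2454, 2538, 2561, 2923 and 3693 CPM. Its sums of 1 day HFD were at 1984, 2052, 2168, 2239, 2332 and 2519. All but 1 control sum lay above 5 of the 6 HFD sums, and the means were lower on both plates. The log2 difference was -0.31 (SE 0.11, 95% interval -0.53 to -0.09, adjusted p = 0.613). Among wells with at least 3000 transcripts it was -0.04.

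Olfml3 was 1336, 1534, 1731, 1777, 1829 and 2038 CPM in control sums and 1777, 1811, 1820, 2118, 2323 and 2353 CPM at 1 day. Of the HFD sums 3 thus lay above every control sum, with a log2 difference of 0.24 (SE 0.11, adjusted p = 0.75). This difference was -0.40 among wells with at least 3000 transcripts (SE 0.47). It was close to 0 in a fit without the plate term that also took in the control sums of all plates. The other surface members were nearer to control: Tmem119 differed by 0.15 (interval -0.07 to 0.37) and Selplg by 0.12 (interval -0.08 to 0.32). The intervals of Sparc (0.07, -0.12 to 0.26) and Golm1 (-0.11, -0.40 to 0.19) also included 0.

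**Figure D2:**
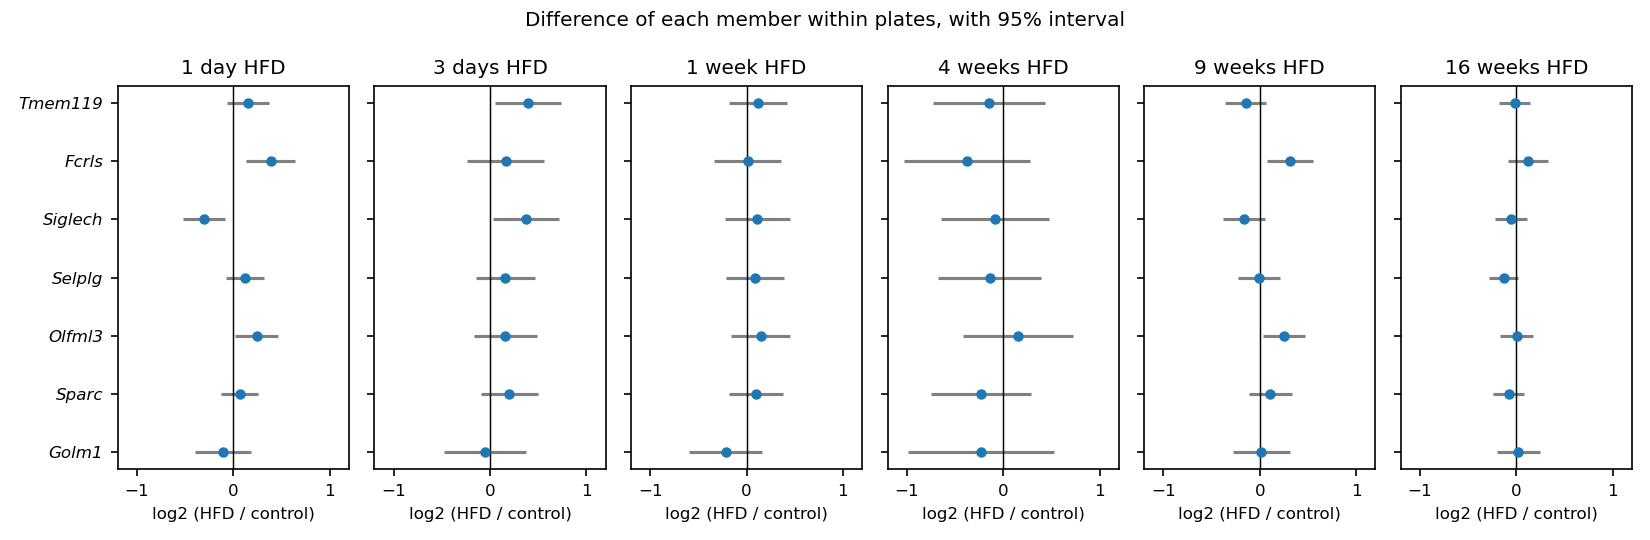
Log2 difference between HFD and control within plates (x axes) for each member (y axis) and each length of HFD. Points are edgeR estimates and bars their 95% intervals. At 1 day Fcrls (0.39) lies above 0 and Siglech (-0.31) below it, and the bars are widest at 4 weeks.

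At 3 days, the diet length the study was built on, the surface members Tmem119 and Siglech were the furthest from control. The comparison rested on 5 control and 4 HFD sums on plates 4 and 13, and 2 of 7 members had an unadjusted p under 0.05, against 7.72% of 661 genes. Tmem119 was 1542 in the 1 control sum of plate 4, against 1538 and 1949 in its HFD sums. On plate 13 it was 1624, 1637, 1747 and 1864 in control sums and 2197 and 2704 in HFD sums. The wells of these HFD sums were named 14 weeks. Those of the control sums were named 14 weeks (1624 and 1864) or 24 weeks (1637 and 1747). Both HFD sums of plate 13 thus lay above all 4 control sums of that plate, while on plate 4 one HFD sum did not exceed the control. The log2 difference was 0.39 (SE 0.17, 95% interval 0.05 to 0.74, adjusted p = 0.54). It was 0.01 in the fit without the plate term, which took in the sums of all plates, and 0.75 without the filter on low genes.

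Siglech had a similar pattern at 3 days. On plate 4 it was 2045 in the control sum and 2023 and 2952 in the HFD sums. On plate 13 it was 2032, 2112, 2128 and 2765 in control sums and 2915 and 3245 in HFD sums. The log2 difference was 0.37 (SE 0.17, adjusted p = 0.54), and 0.10 without the plate term and with the sums of all plates. Its sign was thus opposite to that at 1 day. The test for any difference between the 7 diet groups gave Siglech the smallest p of the members, with an adjusted p of 0.665. In that test 0% of 2336 genes passed and 5.69% had an unadjusted p under 0.05.

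The other members at 3 days were Fcrls (0.16), Selplg (0.16), Olfml3 (0.16), Sparc (0.20) and Golm1 (-0.05), each with an interval that included 0. The control of plate 4 was a single sum of 7 cells. Without it, Sparc differed by 0.42 and Selplg by 0.30 on the log2 scale, and with plate 4 alone the values were -0.13 and -0.01. Cells with MHC class II transcripts were most frequent in this group, and without them Tmem119 differed by 0.44 and Siglech by 0.38.

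At 1 week no member had an unadjusted p under 0.05, against 6.16% of 1071 genes, in 7 control and 5 HFD sums on 4 plates. The estimates ran from -0.22 for Golm1 to 0.15 for Olfml3, and 6 of the 7 intervals stayed within 1.5-fold of control in either direction. Tmem119 was 1542 to 1864 CPM in control sums (median 1693) and 1768 to 2005 in HFD sums (median 1929). Those ranges overlapped, and the log2 difference was 0.12 (SE 0.15).

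At 4 weeks the data were thin. Only 2 control and 3 HFD sums on plates 1 and 4 could be compared, 0 of 7 members against 1.35% of 1856 genes had an unadjusted p under 0.05, and no interval stayed within 1.5-fold of control. Fcrls was 972 and 1104 in the control sums and 530, 723 and 952 in the HFD sums. These groups did not overlap, but with so few sums, and no share of all genes that also separate, no weight is given to this. The estimate of -0.38 had an interval from -1.03 to 0.28. In the model of all lengths together, which also uses plate 5, it was 0.04. Within plates 1 and 4 the mean summed level of MHC class II genes was 256 CPM in control and 5330 in HFD sums. That of S100a9, the only neutrophil marker measured, was 0 and 206. Fcrls was -0.31 without cells with MHC class II transcripts and -0.28 without cells with markers of another type. In the fit within those plates Olfml3 was the only member estimated above control (0.15, SE 0.27).

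At 9 weeks, Fcrls was again above control and Olfml3 with it. There were 12 control sums of 4 replicates and 6 HFD sums of 2 replicates, M7 and M8, on plates 10 to 12, and 2 of 7 members had an unadjusted p under 0.05, against 7.96% of 1055 genes. Fcrls ranged from 828 to 1458 CPM in control sums (median 1048) and from 1290 to 1490 in HFD sums (median 1396). All 6 HFD sums lay above the control median, and the mean was higher on 3 of 3 plates. The log2 difference of 0.32 (SE 0.12, 95% interval 0.07 to 0.56) had an adjusted p of 0.35. Sums of the same replicate on several plates entered separately; with 1 sum per replicate over the linked plates it was 0.28.

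Olfml3 ranged from 1607 to 2514 in control sums (median 2125) and from 1896 to 2927 in HFD sums (median 2417) at 9 weeks. The log2 difference was 0.25 (SE 0.11, adjusted p = 0.445), with higher means on 3 of 3 plates. Tmem119 (-0.15) and Siglech (-0.17) were estimated below control, with intervals that included 0. Selplg (-0.0035) and Golm1 (0.02) were close to control, but both depended on the HFD replicate. Golm1 was -0.29 without M8 and 0.25 without M7, and Selplg -0.23 and 0.18.

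At 16 weeks the comparison had the most sums, and the members' estimates were closest to control. There were 18 control sums of 9 replicates and 10 HFD sums of 5 replicates on 6 plates. Sums of the same replicate on several plates entered separately, so the intervals may be too narrow. On plate 13 the HFD sums held wells named 24 weeks, and the control sums wells named 14 or 24 weeks. No member had an unadjusted p under 0.05, against 7.16% of 936 genes, and all 7 intervals stayed within 1.5-fold of control. The share of all genes with such intervals is not given here. The estimates ran from -0.13 for Selplg (SE 0.08, interval -0.29 to 0.02) to 0.12 for Fcrls (SE 0.11). Selplg was 2993 to 4811 CPM in control sums (median 3816) and 2910 to 4550 in HFD sums (median 3394), lower on 5 of 6 plates by the plate means. Tmem119 differed by -0.02 (interval -0.17 to 0.14).

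Over all lengths, the direction was not shared by the members. Olfml3 was estimated above control at 6 of 6 lengths, by 0.01 to 0.25 on the log2 scale, and Fcrls at 5 of 6. These signs were not stable under other settings: Olfml3 at 16 weeks fell below 0 in the joint model, without the filter, over linked plates and without cells with other markers, and at 1 day with at least 3000 transcripts per cell. Fcrls changed sign under at least 1 setting at 3 days, 1 week, 4 weeks and 16 weeks. Sparc was above control at 4 lengths, Tmem119 and Selplg at 3, and Siglech and Golm1 at 2. The comparisons at 3 days and 1 week share the controls of plates 4 and 13, 4 weeks uses those of plate 4 too and 16 weeks those of plate 13, and 9 and 16 weeks share those of plates 10 to 12, so these counts are not independent. The trend over the order of the lengths gave a slope per step of 0.03 for Fcrls (SE 0.02) and -0.02 for Siglech (SE 0.01), with adjusted p = 0.898 for both. In that test 0% of 2336 genes passed and 5.09% had an unadjusted p under 0.05.

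No change was called in the wider homeostatic programme either. Of 28 other homeostatic genes 27 were tested at each length, and 0 passed in either direction. Their median log2 difference lay between -0.07 (4 weeks) and 0.06 (9 weeks), against medians of all genes between -0.01 and 0.02. As none passed, the genes with the smallest p at each length are named with their log2 differences (3 a length, and 2 at 9 weeks). At 1 day these were the tetraspanin Cd81 (0.27), the leukotriene synthase Ltc4s (0.39) and the TGF-β receptor Tgfbr1 (0.21). At 3 days they were the fractalkine receptor Cx3cr1 (0.29), cystatin C, encoded by Cst3 (0.20), and the complement gene C1qa (0.25). At 1 week they were the ribonuclease Rnase4 (-0.35), the fructose transporter Slc2a5 (0.44) and C1qa (0.33).

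Complement C1qc (-0.45), the ectonucleotidase Entpd1 (-0.59) and the lysophosphatidylserine receptor Gpr34 (-0.45) led at 4 weeks. The transcription factor Mef2c (0.27) and the phagocytic receptor Mertk (-0.22) led at 9 weeks. Cx3cr1 (-0.20), the adhesion receptor Adgrg1 (0.20) and Slc2a5 (-0.22) led at 16 weeks. The smallest adjusted p among these genes was 0.591, for Cx3cr1 at 16 weeks, so no difference of this list held after adjustment.

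Genes of the disease-associated state, known from models of neurodegeneration, were tested in 8 to 11 of 16 measured members, and 0 passed at any length. Their median log2 difference ran from -0.12 at 1 week to 0.16 at 9 weeks. An unadjusted p under 0.05 was found for 0 of 9 at 1 day, 1 of 8 at 3 days and 2 of 9 at 1 week. It was found for 0 of 11 at 4 weeks, 3 of 8 at 9 weeks and 1 of 8 at 16 weeks. The shares of all genes at these lengths were 5.65%, 7.72%, 6.16%, 1.35%, 7.96% and 7.16%. Immediate early genes, which respond to handling of the cells, were tested in at most 5 of 10. At 9 weeks 1 of the 3 tested, Jun, passed (lower), with a list median of -0.92. Within plates, the mean summed level of these genes was 1323 CPM in control and 989 in HFD sums at 1 day, where the list median was -0.43 over 3 genes. It was 335 against 398 CPM at 3 days, 581 against 890 at 1 week, 2368 against 1854 at 4 weeks, 907 against 512 at 9 weeks and 1152 against 866 at 16 weeks. The level was thus higher with HFD at 3 days and 1 week and lower at the other lengths, and its part in the members' values was not tested.

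Detection was examined next, since a gene can be lost from some cells while its mean is kept. Each cell was thinned to 1000 UMIs. In control cells at that depth, at least 1 UMI of Sparc was found in 98.3% of cells, of Selplg in 92.7%, of Siglech in 88.2%, of Tmem119 in 84.2%, of Olfml3 in 80.6%, of Fcrls in 59.4% and of Golm1 in 46.4%. Without thinning the shares over all cells were 99.4% for Sparc, 96.7% for Tmem119, 87.3% for Fcrls and 79.4% for Golm1.

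**Figure D3:**
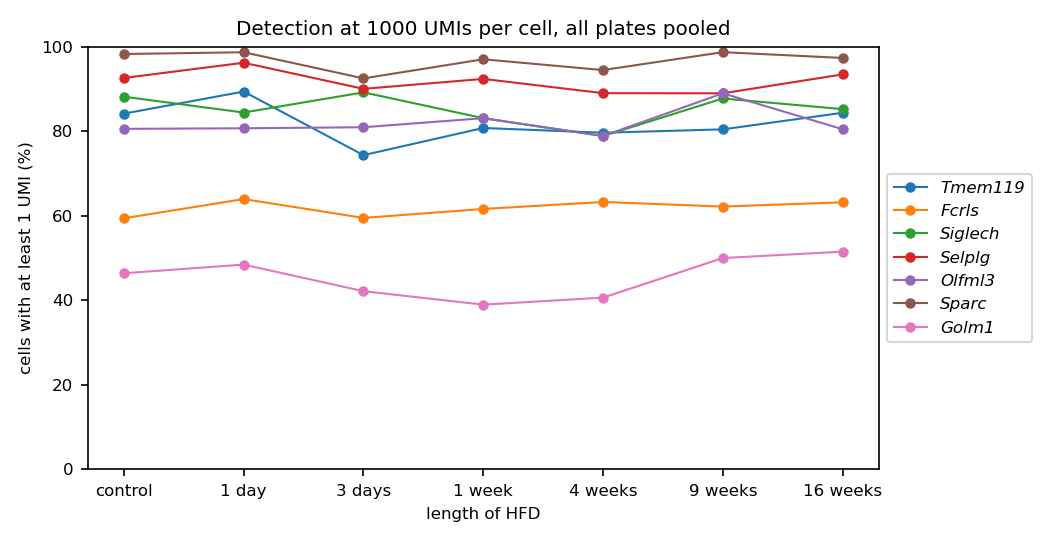
Share of cells with at least 1 UMI of each member after thinning every cell to 1000 UMIs (y axis, percent) by length of HFD (x axis), all plates pooled, points joined to follow a gene. Sparc is highest and Fcrls and Golm1 are lowest at every length, with Sparc between 92.6% (3 days) and 98.8% (9 weeks) and Golm1 between 39% (1 week) and 51.5% (16 weeks).

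The differences in detection within plates ran from -10.1 percentage points (Fcrls, 3 days) to 8.74 (Olfml3, 1 week) over the 42 combinations of member and length. None passed by the exact two-sided permutation test of diet labels among the replicates within each set of linked plates (smallest adjusted p = 0.67), and 0 of 42 had an unadjusted p under 0.05. The design allowed a smallest p of 0.0222 at 3 days, 0.0167 at 1 week, 0.167 at 4 weeks, 0.0667 at 9 weeks and 0.00222 at 16 weeks. At 1 day both plates held equal groups, and exchange of all labels gives the same absolute difference. The smallest p there was therefore above 0.0025, or 1 of 400 assignments. At 4 and 9 weeks no comparison could reach 0.05 even before adjustment. At any length, a comparison that alone reached the smallest p would have had an adjusted p of 0.0933 or more, so only several together could have passed, and the absence of calls says little about detection.

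At 3 days, detection and level of a member could differ in sign. Tmem119 had a difference of -5.04 points in detection beside its level of 0.39 on the log2 scale, and Sparc -7.89 points beside 0.20. No order is read from these shares. Tmem119 was at 1.21 points after thinning to 2000 UMIs. Golm1 at 16 weeks was 3.16 points above control at 1000 UMIs and 12 points below it at 2000 UMIs (exact permutation p = 0.00222, the smallest possible, adjusted p = 0.0933), a depth that left out 109 control cells and 31 cells of 16 weeks.

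Most cells carried the whole set. All 7 members were detected in 1069 of 1617 cells (66.1%) and 6 of them in a further 26.7%. Only 6 cells had 2 or fewer, of which 3 held markers of another cell type and 2 held MHC class II transcripts. Beyond the counting error, the level per cell had a coefficient of variation of 34.9% for Selplg, 36% for Golm1, 37.7% for Sparc, 38.2% for Tmem119, 40.1% for Siglech, 45.4% for Olfml3 and 54% for Fcrls. The median of the 152 genes at least as abundant per cell as Golm1 was 39.5%. Fcrls, at the 131st place of these 152, was thus the member with the most uneven expression, and 12.7% of cells held no UMI of it where counting alone would leave 5.49%.

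Levels of the members in cells with other markers are given as a description. In the 8 replicates that had at least 3 cells with markers of another type, the summed level of the members in those cells averaged 11002 CPM, against 17930 in the other cells of the same replicates, and it was lower in 8 of 8. Tmem119 (931 against 2052) and Selplg (2297 against 3657) were lower in 8 of 8 and Fcrls (914 against 1157) in 6 of 8. The cells with other markers held more transcripts, with a median of 4037 against 2803.

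In the 33 cells with MHC class II transcripts on plates 4 and 5, compared in 4 replicates, the members also summed to less, 10354 against 17287 CPM, in 4 of 4. Siglech (1370 against 2456), Sparc (3082 against 5372) and Golm1 (321 against 595) were lower in 4 of 4, and Fcrls (726 against 1050) in 2 of 4. Both classes were compared after the values had been seen, so these values are a description and the permutation tests run on them are given no weight. Leaving out either class changed no call of a member.

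The members also varied together from cell to cell. Spearman correlations of log2(counts per 10000 + 1) were computed on each plate, with each gene centred within diet length, and the median over 13 plates was taken. The 21 pairs of members had positive values in 21 of 21, from 0.02 (Siglech with Golm1) to 0.29 (Tmem119 with Selplg), with a median of 0.15. In control cells alone, Tmem119 with Siglech (-0.0098) and Siglech with Golm1 (-0.020) were below 0. Over all 11476 pairs of the 152 genes of like abundance the median was 0.02, the 95th percentile 0.14 and the share above 0 61.9%. These are descriptions across cells that share a library and a scaling, and weak values in sparse counts.

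**Figure D4:**
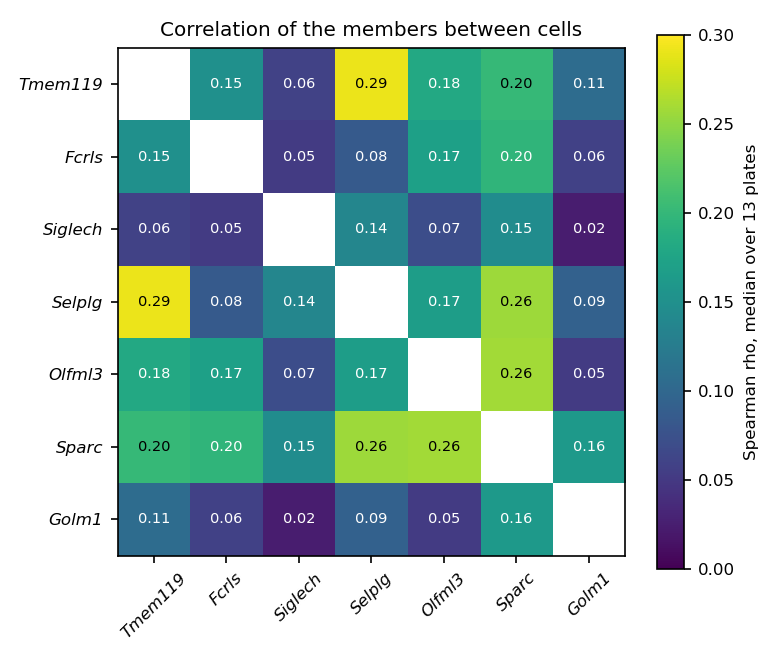
Median over 13 plates of the Spearman correlation between cells for each pair of members (colour scale from 0 to 0.30, values printed in the cells of the grid). Tmem119 with Selplg (0.29), Olfml3 with Sparc (0.26) and Selplg with Sparc (0.26) are highest, and no value of Siglech exceeds 0.15.

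The neighbours Tmem119 and Selplg were correlated on 13 of 13 plates, between 0.12 and 0.54. The secreted pair Olfml3 and Sparc (0.26) and the pair Selplg and Sparc (0.26) were also positive on 13 of 13. So were Fcrls with Sparc (0.20), Selplg with Olfml3 (0.17) and Siglech with Sparc (0.15). Values of Siglech were low with Golm1 (0.02), Fcrls (0.05), Tmem119 (0.06) and Olfml3 (0.07) and higher with Selplg (0.14) and Sparc (0.15). Golm1 was similarly low with Olfml3 (0.05), Fcrls (0.06) and Selplg (0.09). When each cell was thinned to 1000 UMIs, all 21 pairs remained above 0, but lower, with a median of 0.08 and a highest value of 0.17. All pairs of the 152 genes, thinned in the same way, had a median of 0.0054, a 95th percentile of 0.085 and 55.1% above 0. No member was closely tied to the depth of the cell, with values between -0.02 for Siglech and 0.14 for Fcrls.

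The summed members had a correlation of 0.53 with the sum of the 28 other homeostatic genes in the same cells (0.24 to 0.72 over plates). Sparc (0.50) and Selplg (0.34) had the highest values with that list and Golm1 (0.11) the lowest. Values with the disease-associated list (0.08), the immediate early genes (-0.04) and MHC class II (-0.03) were small. The value with monocyte markers was -0.12. The lists differ in size and abundance, and these values depend on both, so no order of the lists is read from them.

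Members were also compared between the 68 sums, after plate and diet length were removed. Among 2336 genes, the genes most like Tmem119 by Pearson correlation were Tspan14 (0.63), a tetraspanin, Selplg (0.57) and Cx3cr1 (0.53). Those most like Selplg were Tmem119 (0.57), Cx3cr1 (0.57) and the purinergic receptor P2ry12 (0.54). Members correlated with each other at a median of 0.27 over the 21 pairs, against 0.0026 over all pairs of genes. The 95th percentile of all pairs was 0.26. Most of the 2336 genes were less abundant than Golm1, the lowest member and the 140th gene in control cells. This background is therefore not of like abundance, and some replicates entered in several sums.

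Cx3cr1 was also among the 3 genes most like Olfml3 (0.50, after Mlec at 0.58 and before Sf3b2 at 0.50) and Sparc (0.51, after Cds1 at 0.51 and before Rnaset2a at 0.50). Fcrls was most like Slc9a9 (0.51), the transferrin gene Trf (0.51) and Prrc2a (0.48). Siglech was most like B4galt4 (0.55), the signalling regulator Rgs10 (0.50) and Tmem50b (0.47). Golm1 was most like Cd164 (0.50), Bscl2 (0.49) and Rsrp1 (0.49). Apart from Tmem119 and Selplg, no member was among the 3 genes most like another.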

How the data were processed

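Hypothalamic microglia were sorted as single CD45lo CD11b+ cells and sequenced by CEL-Seq2. The authors processed the reads within snakePipes (Cutadapt, FastQC, STAR to GRCm38/mm10, featureCounts) and used RaceID3 downstream. The deposited plate tables hold an estimated count of transcripts per gene and well, corrected for chance repeats among UMIs and not normalized. All values above 0 were whole UMIs within a tolerance of 0.001 after the correction was undone. The wells' table, as deposited, gave plate, diet length and replicate. The authors' filtered table gave only its list of genes, and its 843 value columns were not used.

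Members and gene lists were chosen with earlier results of these data known. Cells had at least 1500 transcripts. Counts were summed per replicate, length and plate (at least 5 cells), rounded and fitted by edgeR 4.0.16 in R 4.3.3 (quasi-likelihood, TMM, filterByExpr, plate as a term) on plates holding both control and that length, with Benjamini-Hochberg adjustment over all genes tested. DESeq2 1.42.0 was an alternative. Fits were tested on simulated data. Depth was 1510 to 19948 transcripts per cell, and intervals are at 95%. Detection used exact permutation and numpy 2.4.6. The named genes were the 7 members, the 3 genes most alike across sums, other homeostatic genes past the threshold or else the 3 with the smallest p, and any other gene was named after its values were seen. One gene that this rule names is not reported here.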

Additional observations from a re-analysis of the deposited data

Results flagged for a closer look

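With 1 sum per replicate over linked plates, 28 groups of member and diet length with 4 to 10 replicates were checked for a replicate far from the others, and 2 stood apart, where chance alone is expected to flag about 1 in 20. Selplg in replicate M5 of 16 weeks was at 3958 CPM, against 3314 to 3470 in the other replicates (n = 5). Olfml3 in replicate M10 of 16 weeks, which had 8 cells, was at 1362 CPM, against 2086 to 2306 in the others (n = 5). These levels were not adjusted for plate. The control means of Selplg on plates 10, 11 and 12, which held M5, were 3749, 4456 and 4003 CPM. The control mean of Olfml3 on plate 13, which held M10, was 2400 CPM.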

How the results depend on the processing

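No member passed the threshold in any of the 150 alternative fits of level and trend that gave a value. The smallest adjusted p of a member was 0.0938 (Fcrls at 9 weeks without control replicate M1 of plates 10 to 12). Of 1050 member values 959 kept their direction and 91 changed sign. The cause of the sign changes was not tested. Over all genes, the number called ranged from 0 to 2 at 1 day (0 as reported). At 3 days it was 0 to 14 (0 as reported, 14 without a plate term and with the sums of all plates). It was 0 to 12 at 1 week (3 as reported, 12 with no filter) and 0 to 14 at 4 weeks (0 as reported, 14 without plate 1). It was 0 to 4 at 9 weeks (1 as reported), 0 to 4 at 16 weeks (0 as reported) and 0 to 2 in the trend (0 as reported). At least 10 cells per sum and leaving out plate 4 or its control gave no fit at 4 weeks. Plate was a term of the fits as reported, so control and HFD sums were compared within plates. The number of weeks in the names of wells was not a term, nor did it limit the permutations. On plate 13, controls named 14 and 24 weeks were compared together with HFD sums of 3 days and 1 week (named 14 weeks) and 16 weeks (named 24 weeks). The part of this number in the values was not tested. No paired analysis was possible because, on each plate, a replicate identifier belongs to control or to a single HFD length and never to both.

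The fit without a plate term took in the sums of all plates, so the set of sums changed as well as the term. The values of the log2 difference that changed sign in it were Selplg -0.0086, Sparc -0.030 and Golm1 0.0069 at 1 day, Fcrls -0.068 at 3 days, Tmem119 -0.056, Fcrls -0.025, Siglech -0.13 and Selplg -0.026 at 1 week, Selplg 0.11 at 9 weeks, Tmem119 0.026 and Golm1 -0.0051 at 16 weeks. In the joint model of all lengths they were Golm1 0.12 at 3 days, Fcrls 0.039 and Selplg 0.056 at 4 weeks, Selplg 0.011 and Golm1 -0.022 at 9 weeks, Olfml3 -0.011 at 16 weeks. With no filter on low genes they were Golm1 0.30 at 3 days, Golm1 -0.051 at 9 weeks, Olfml3 -0.065 and Golm1 -0.046 at 16 weeks. With at least 3000 transcripts per cell they were Olfml3 -0.40 and Golm1 0.0074 at 1 day, Tmem119 0.0046 and Golm1 -0.019 at 16 weeks. By DESeq2 they were Fcrls -0.0037 at 1 week, Selplg 0.0026 at 9 weeks. With RLE size factors it was Selplg 0.0013 at 9 weeks. With no scaling it was Golm1 0.0019 at 3 days. With at least 10 cells per sum they were Golm1 0.18 at 3 days, Tmem119 0.010 at 16 weeks. With sums over linked plates they were Tmem119 0.011 and Olfml3 -0.043 at 16 weeks. Without MHC class II cells it was Fcrls -0.038 at 1 week. Without cells with other markers they were Siglech 0.0044 at 4 weeks, Selplg 0.029 at 9 weeks, Olfml3 -0.019 at 16 weeks. With all lengths together against control they were Tmem119 0.021, Selplg 0.010 and Sparc 0.033.

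Leaving out each replicate or plate in turn gave, at 3 days, -0.015 to 0.30 for Selplg, -0.13 to 0.42 for Sparc and -0.44 to 0.18 for Golm1. At 1 week the range was -0.11 to 0.070 for Fcrls, -0.081 to 0.32 for Siglech and -0.041 to 0.19 for Selplg. At 4 weeks the range was -0.12 to 0.0083 for Siglech and -0.59 to 0.020 for Golm1. At 9 weeks the range was -0.23 to 0.18 for Selplg and -0.29 to 0.25 for Golm1. At 16 weeks the range was -0.11 to 0.019 for Tmem119, -0.063 to 0.21 for Fcrls, -0.060 to 0.070 for Olfml3 and -0.077 to 0.077 for Golm1.

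In detection, no setting gave a call, but a comparison alone could not have passed under the adjustment. Of the 42 differences, 19 changed sign at 2000 UMIs, 15 without thinning and 12 for at least 2 UMIs. For at least 2 UMIs they ran from -11.5 points (Siglech, 1 day) to 18.8 (Siglech, 3 days, 2.84 as reported). Examples, in percentage points, were Fcrls at 3 days, 3.6 at 2000 UMIs and 4.82 for at least 2 UMIs, Tmem119 at 3 days, 1.21 at 2000 UMIs, 0.234 without thinning and 10.02 for at least 2 UMIs, Tmem119 at 16 weeks, 2.37 for at least 2 UMIs, and Golm1 at 16 weeks, -12.0 at 2000 UMIs, -3.39 without thinning and -2.73 for at least 2 UMIs. The median correlation of member pairs was 0.08 thinned, 0.12 in control cells alone and 0.14 by Pearson.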
